A study of Mus musculus with 412 samples.

Results

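The 39 protein-coding Hox genes of the mouse were described in single sensory neurons that innervate the colon. They were taken as every gene of the deposited expression table with a Hoxa, Hoxb, Hoxc or Hoxd symbol and a paralog number, 39 of 45513 genes, with 11 in the HoxA, 10 in the HoxB, 9 in the HoxC and 9 in the HoxD cluster. Neurons came from dorsal root ganglia of C57BL/6J mice whose colon wall had been injected with Fast Blue, a dye carried back along the nerve to the cell body. The thoracolumbar (TL) group was picked from ganglia T10 to L1, whose fibres reach the colon in the lumbar splanchnic nerve, and the lumbosacral (LS) group from ganglia L5 to S2, whose fibres run in the pelvic nerve. Both groups shared the strain, the laparotomy for the injection, an interval of 3 to 10 days before the ganglia were taken, enzymatic dissociation into primary cultures and picking by glass pipette, and the labels name no allele, drug or age for either. The table held 325 of 399 labelled neurons, 167 of 203 in TL and 158 of 196 in LS.

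The labels tie no neuron to a mouse or a culture, so each segment counted as 1 sample and no test between TL and LS could be made. Comparisons are therefore given as levels over neurons, as shares of neurons with exact Clopper-Pearson 95% intervals that cover counting error only, and by whether the direction was the same in each of the library plates 2 to 6, since plate 1 held 5 TL neurons and no LS neuron. Where a gene was found in none of a group, the share that a count of 0 allows (3 neurons of the group) is given.

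Hox genes encode transcription factors with a homeodomain and lie in clusters in which low-numbered genes stand at one end and high-numbered genes at the other. In the embryo the order along the chromosome matches the order along the body: low-numbered (anterior) genes are switched on nearer the head, and high-numbered (posterior) genes nearer the tail. Genes with the same number in different clusters are paralogs and share much of their homeodomain, and neurons keep part of the pattern into adulthood. Among members with a known role in sensory neurons, Hoxd1 takes part in the development of mouse nociceptors.

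On the GRCm38 build the HoxA cluster lies on the minus strand of chromosome 6, and on the plus strand HoxB spans chr11:96194316-96368256, HoxC chr15:102921103-103036852 and HoxD chr2:74668310-74765142. Hoxd10 lies at chr2:74691924-74695105 and Hoxd1 at chr2:74762980-74765142. Most of the results turn on Hoxa10, Hoxc10 and Hoxd10, the paralogs of group 10, whose homeoboxes (the exonic bases that encode the homeodomain) are shown because they bear on how far reads could tell these genes apart. The 3 sequences were read from the coding part of the GENCODE M21 transcripts, whose annotation places them on GRCm38 at chr6:52232554-52232733 (minus strand), chr15:102970848-102971027 (plus) and chr2:74694141-74694320 (plus). Each has 180 bases, and capitals mark the 50 positions that are not the same in all 3.
Hoxa10: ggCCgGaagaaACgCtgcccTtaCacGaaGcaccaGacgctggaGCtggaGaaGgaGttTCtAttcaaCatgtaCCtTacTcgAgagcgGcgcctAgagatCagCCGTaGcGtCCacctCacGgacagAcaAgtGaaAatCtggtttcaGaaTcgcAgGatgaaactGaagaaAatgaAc
Hoxc10: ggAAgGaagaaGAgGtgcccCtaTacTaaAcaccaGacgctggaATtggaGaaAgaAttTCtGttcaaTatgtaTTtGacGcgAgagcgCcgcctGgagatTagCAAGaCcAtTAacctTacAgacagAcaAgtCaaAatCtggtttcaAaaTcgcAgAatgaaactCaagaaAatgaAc
Hoxd10: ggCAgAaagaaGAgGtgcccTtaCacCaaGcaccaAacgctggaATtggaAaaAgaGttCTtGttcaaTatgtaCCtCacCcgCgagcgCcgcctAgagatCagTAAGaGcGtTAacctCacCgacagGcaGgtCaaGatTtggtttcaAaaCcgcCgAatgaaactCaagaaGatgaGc
Hoxc10 and Hoxd10 were identical at 82.8% of these bases, Hoxa10 and Hoxc10 at 80.6%, and Hoxa10 and Hoxd10 at 78.9%. Over all 39 homeoboxes the median identity was 80.6% for the 42 pairs within a paralog group and 60.6% for other pairs. No Hox gene shared a stretch of 75 bases, the length of 1 read, with a protein-coding transcript of another Hox gene; other annotated transcripts of neighbouring members do share exonic bases, as those of Hoxc10 and Hoxc5 do.

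Levels are given as a rescaled value, proportional to reads per base of gene and summing to 1000000 in each neuron, so that genes of different length can be compared. A neuron was counted as expressing a gene at a value of 1 or more. The neurons held 0.416 M to 12.1 M assigned reads (M, 1000000 reads), with a median of 2.71 M in TL and 3.20 M in LS. One read of Hoxd10 was worth a median value of 0.494 in TL and 0.433 in LS neurons. All 8 sensory neuron markers were expressed at the median in both segments. The summed value of 10 satellite glia markers had a median of 2022 in TL (2.38 to 101167) and 219 in LS (6.83 to 61514), and Kcnj10, Sox10 and Cdh19 were at 0 at the LS median. Rank correlations of 10 Hox genes with that glial sum lay between -0.24 and 0.14 over the neurons of a segment, and without clusters 4 and 7, of which cluster 4 held the highest glial sums, 12 Hox genes met the rule below between LS and TL, as with them; any further part of the glial RNA was not tested.

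To compare the segments within like neurons, neurons were sorted by 3 marker genes. Gfra3, the receptor subunit for artemin found on many peptidergic neurons, at 10 or more defined 100 TL and 83 LS Gfra3 neurons. Piezo2, a mechanically gated ion channel, at 10 or more with Gfra3 under 10 defined 55 TL and 65 LS Piezo2 neurons, and 12 TL and 10 LS neurons fell in neither type. Both gates were passed by 25 neurons (18 TL and 7 LS), which counted as Gfra3 neurons. Nrp1, a semaphorin receptor, at 10 or more split the same neurons into 116 TL and 37 LS neurons with Nrp1 and 51 TL and 121 LS neurons without. Few neurons lay near the first 2 limits (3 with Gfra3 from 5 to 10 and 3 from 10 to 20; 11 and 6 for Piezo2), against 21 and 28 neurons for Nrp1. The gates did not hold the same subtypes in both segments: of the Gfra3 neurons, 80% in TL and 37.3% in LS fell in cluster 5, and 51.8% in LS fell in cluster 6, a cluster without TL neurons. Of the Piezo2 neurons, 40% and 43.6% in TL fell in clusters 2 and 3, and 72.3% in LS in cluster 1, also without TL neurons.

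Most members were present in colonic neurons. Of the 39 genes, 31 were expressed in at least 5% of the neurons of TL or LS, 7 (Hoxa3, Hoxa13, Hoxb13, Hoxc12, Hoxc13, Hoxd12 and Hoxd13) had reads in fewer neurons, and Hoxb1 had no read. A mean value of 1 or more in TL or LS was reached by 20 genes, and 14 genes reached a mean of 5 in at least 1 of the 4 groups of segment and type. Summed over all members, the mean value was 148 in TL and 322 in LS. In Gfra3 neurons the sum ran from 1.58 through a median of 117 to 344 in TL and from 121 through 272 to 540 in LS. In Piezo2 neurons it ran from 11 through 178 to 394 in TL and from 146 through 385 to 639 in LS. The median Hox sum was thus higher in LS than in TL in both types, with wide overlap. Each sum is a share of the fixed total per neuron, which also counts the glial RNA described above, and not an amount of RNA. HoxD genes made up 48.3% of the sum in TL and 67.4% in LS, HoxA genes 26.6% and 18.4%, HoxB genes 22.6% and 5.85%, and HoxC genes 2.55% and 8.34%. By paralog number, group 1 gave 35.7% of the sum in TL and 4.44% in LS, while group 10 gave 2.18% in TL and 52.5% in LS.

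**Figure D1:**
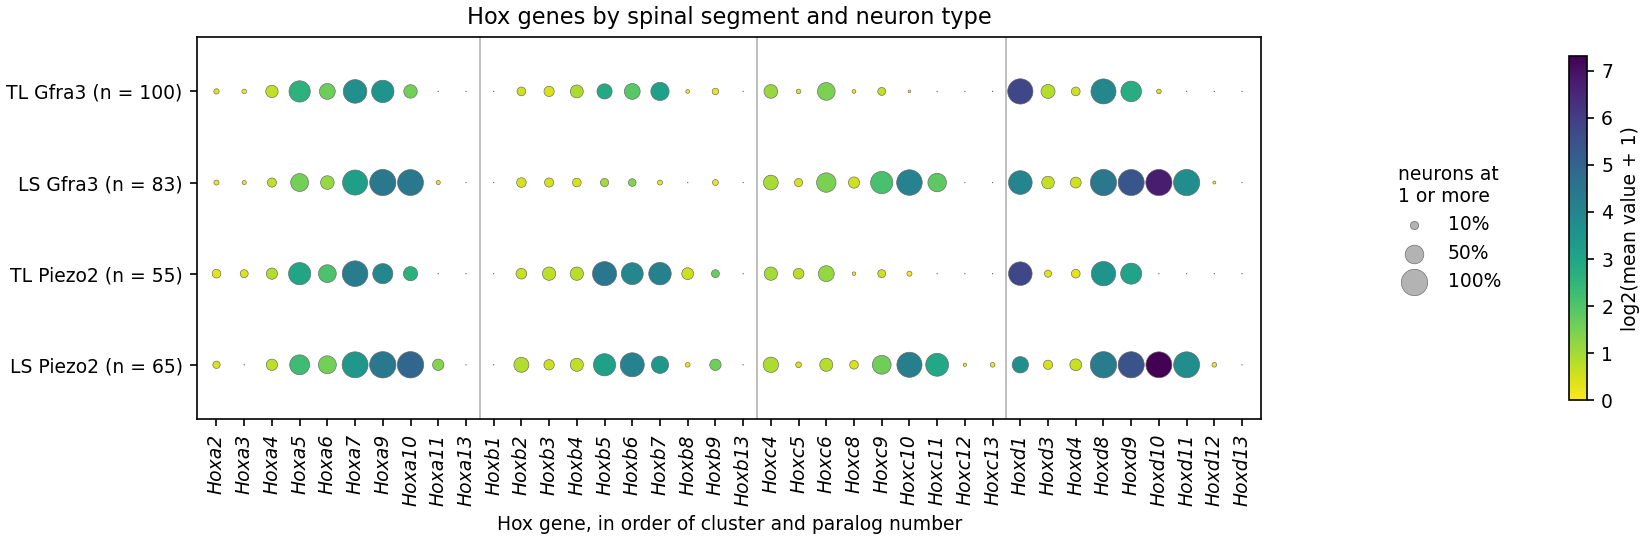
Each column is 1 Hox gene, with 1 member not shown, and each row 1 of the 4 groups (TL and LS, Gfra3 and Piezo2 neurons); the area of a dot is the percent of neurons at a value of 1 or more and its colour the log2 of the mean value plus 1. Hoxd10, Hoxd11, Hoxc10 and Hoxc11 stand out in both LS rows (Hoxd10 in 98.8% of Gfra3 and 96.9% of Piezo2 neurons) and are all but empty in the TL rows.

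Posterior genes separated the segments in both neuron types. A gene was counted as higher in a group when the ratio of means was at least 2, the higher mean at least 1 and the direction the same in every plate used. In Gfra3 neurons 19 members had a higher mean of at least 1, and 7 of these, Hoxa10, Hoxc9, Hoxc10, Hoxc11, Hoxd9, Hoxd10 and Hoxd11, were higher in LS, against 2.87% of 16262 genes of the table. In Piezo2 neurons the same 7 and Hoxa11 were higher in LS, 8 of 20, against 6.5% of 16221 genes. Over all neurons, which mix the types, the same 7 of 20 were higher, against 4.52% of 16184 genes. The median log2 ratio over the members measured was 0.05 in Gfra3 neurons and 0.34 in Piezo2 neurons, beside 0.04 and 0.06 over all genes, so the members did not shift as 1 block.

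Hoxd10, a posterior gene known from hindlimb motor neurons, had the highest mean of all members. In Gfra3 neurons its value ran from 0 through a median of 0 to 27.0 in TL and from 0 through 102 to 343 in LS. It was expressed in 3 of 100 TL neurons (3%, interval 0.623 to 8.52) and in 98.8% of LS neurons, and the groups overlapped in few neurons. The mean was 0.318 in TL and 105 ± 53.9 (SD over 83 neurons) in LS, a ratio of 331, and the means of single plates ran from 0 to 1.35 in TL and from 73.4 to 146 in LS. In Piezo2 neurons it ran from 0 through 0 to 0.577 in TL and from 0 through 159.8 to 327 in LS, where 96.9% of neurons expressed it. No TL Piezo2 neuron reached a value of 1. With 1 read in the TL group, the ratio there was 15096.5, with a counting interval of 2709.5 to 596278. Hoxd10 shares 5.73% of its exonic length with the annotated gene Gm28309, and reads from a library without strand cannot be told apart there.

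Its neighbour Hoxd11 followed the same split at a lower level. In Gfra3 neurons it ran from 0 through 0 to 0.638 in TL and from 0 through 10.6 to 33.6 in LS, with means of 0.0102 and 12.5 and a ratio of 1223. In Piezo2 neurons the LS values ran from 0 through 12.6 to 33.1, and the TL group held 1 read (highest value 0.0997; ratio 6942, counting interval 1246 to 274199). Hoxd11 was expressed in no TL neuron, which allows a share of up to 1.80%, and in 98.8% and 96.9% of LS Gfra3 and Piezo2 neurons. Hoxd9, which precedes both in the cluster, was a matter of degree: in Gfra3 neurons it ran from 0 through 3.16 to 39.9 in TL and from 0 through 38.5 to 104 in LS. Its mean was 6.86-fold higher in LS Gfra3 neurons (39.8 against 5.81) and 5.82-fold higher in LS Piezo2 neurons (42.7 against 7.33), and 61% and 63.6% of the TL neurons of these types expressed it.

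The HoxC and HoxA paralogs differed in how far they were shared by the segments. Hoxc10 ran from 0 through 0 to 1.06 in TL Gfra3 neurons and from 0 through 14.9 to 48.2 in LS Gfra3 neurons, and from 0 through 0 to 1.1 against 0 through 15.4 to 57.9 in Piezo2 neurons. The TL and LS values overlapped only at their low end, and the ratios of means were 707 and 339.7. Hoxc10 shares 8.70% of its exonic length with Hoxc5. Hoxc11 had no TL read. It was expressed in 49.4% of LS Gfra3 neurons (mean 2.55) and 75.4% of LS Piezo2 neurons (mean 6.65), at least 146-fold and 268-fold higher than the level of 3 reads over the TL group. Hoxa10, by contrast, was expressed in 26% of TL Gfra3 and 29.1% of TL Piezo2 neurons. It ran from 0 through 0.0646 to 22.8 in TL and from 0 through 18.5 to 61.0 in LS Gfra3 neurons, and from 0 through 0 to 45.7 and from 2.23 through 26.8 to 62.1 in Piezo2 neurons, so that the ranges overlapped widely while the means differed 10.1-fold and 5.54-fold. Hoxc9 reached 71.1% of LS Gfra3 and 50.8% of LS Piezo2 neurons at means of 3.34 and 2.03, 5.60-fold and 4.29-fold above TL. Among Piezo2 neurons its means were 4.50 in 12 LS and 0.193 in 41 TL neurons with Nrp1. Without Nrp1 they were 1.47 in 53 LS and 1.29 in 14 TL neurons. The Piezo2 call of Hoxc9 was lost with means of log2 values and with values that were not rescaled. At a higher mean of at least 5 its call was lost in both types. Hoxa11 was called in Piezo2 neurons, with a mean of 1.55 in LS and no TL read, at least 70.6-fold higher, and 35.0% of its exonic length overlaps its antisense gene Hoxa11os.

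**Figure D2:**
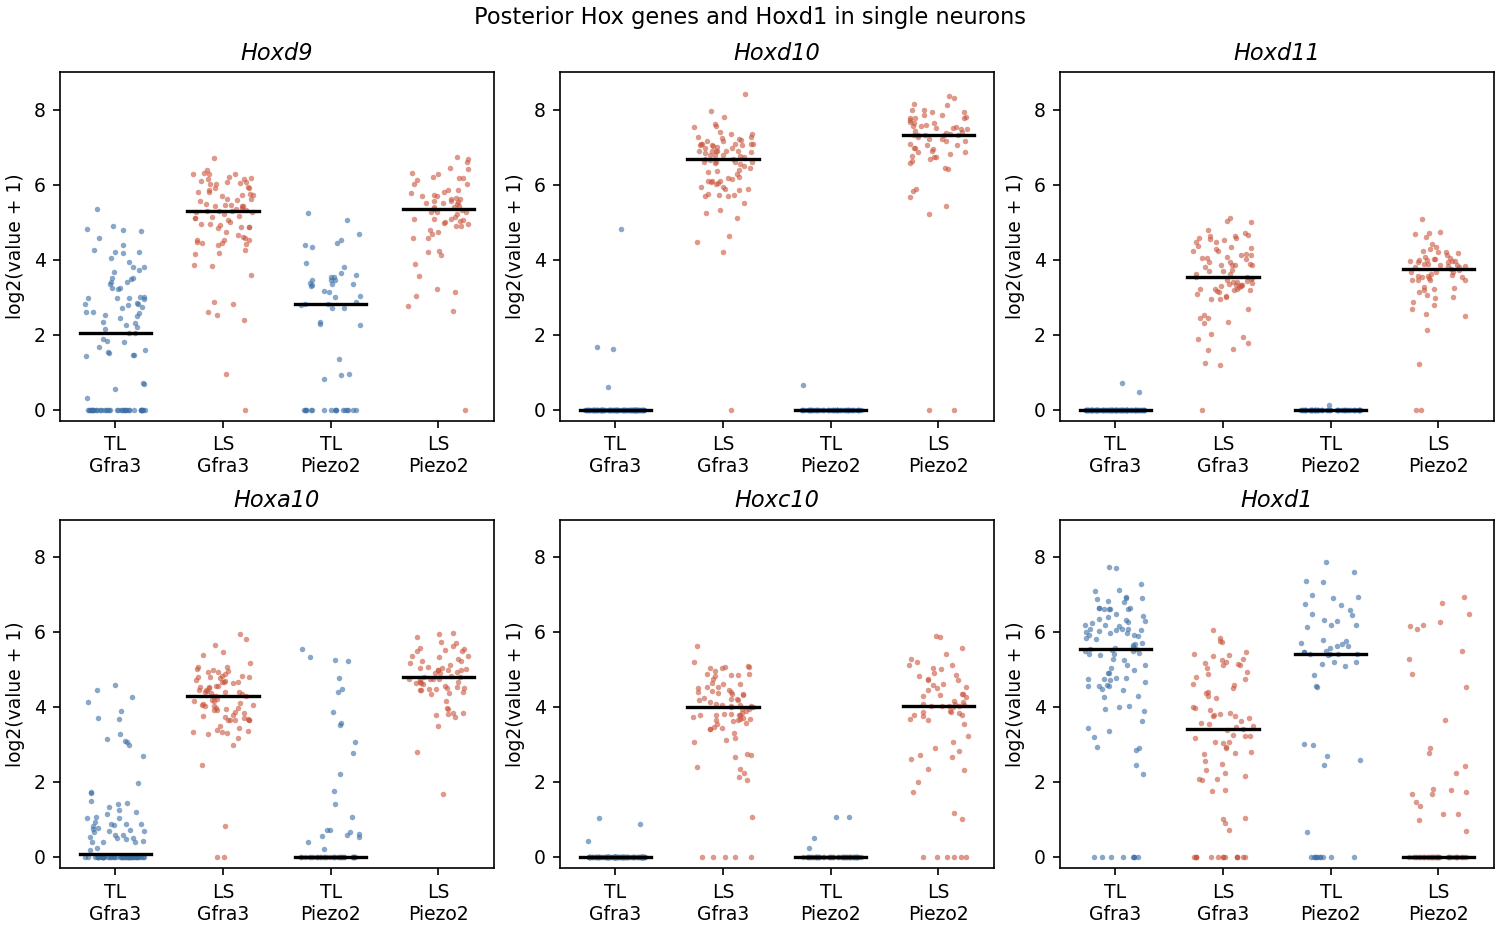
Each point is 1 neuron, the vertical axis is the log2 of the value plus 1, the columns within a panel are the TL and LS groups of Gfra3 and Piezo2 neurons, and black lines mark medians for Hoxd9, Hoxd10, Hoxd11, Hoxa10, Hoxc10 and Hoxd1. The median of Hoxd10 is 0 in both TL groups and 102 and 159.8 in the LS groups, while Hoxa10 and Hoxd9 overlap between segments and Hoxd1 lies lower in LS.

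Members with lower numbers were higher in TL, in fewer genes. In Gfra3 neurons 5 of 19 members, among them Hoxa5, Hoxb5, Hoxb7 and Hoxd1, were lower in LS, against 3.17% of genes. In Piezo2 neurons 2 of 20, Hoxb5 and Hoxd1, were lower, against 3.19%, and over all neurons the same 5 as in Gfra3 neurons, against 3.47%. Of the calls higher in LS, 7 were shared by both types, which is 7 of 7 in Gfra3 and 7 of 8 in Piezo2 neurons. Of those lower in LS, 2 were shared, 2 of 5 and 2 of 2. Whether a gene's ratio differed between the types was not tested.

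Hoxd1 had the highest mean of all members in TL. In Gfra3 neurons it ran from 0 through 45.5 to 210.0 in TL and from 0 through 9.74 to 65.1 in LS, with means of 53.0 and 15.0, 3.54-fold higher in TL. In Piezo2 neurons it ran from 0 through 42.0 to 231 in TL and from 0 through 0 to 122 in LS, with means of 52.6 and 12.1, 4.36-fold higher in TL. Among Piezo2 neurons with Nrp1 the means were 68.3 in 41 TL and 57.4 in 12 LS neurons, and among those without Nrp1 6.60 in 14 TL and 1.79 in 53 LS neurons. Hoxd1 was thus common to both segments, in 92% of TL and 80.7% of LS Gfra3 neurons and in 80% of TL and 38.5% of LS Piezo2 neurons, and the ranges overlapped. The call in Gfra3 neurons was lost when the means of log2 values, or values that were not rescaled, were compared. Hoxa5 ran from 0 through 2.82 to 32.1 in TL and from 0 through 0.267 to 15.7 in LS Gfra3 neurons, with a mean 2.67-fold higher in TL. The Gfra3 calls of Hoxa5 and Hoxb5 were likewise lost with means of log2 values, and that of Hoxa5 at a fold of 3. None of Hoxa5, Hoxb5 and Hoxd1 was called on either side of the Nrp1 split.

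Several members of the middle of the clusters were shared by the segments. Hoxa7 had means of 11.8 in TL and 8.26 in LS Gfra3 neurons and of 18.2 and 9.94 in Piezo2 neurons. Hoxa9 ran from 0 through 9.60 to 41.3 in TL and from 0 through 17.9 to 53.0 in LS Gfra3 neurons. Hoxd8 ran from 0 through 12.6 to 50.2 in TL and from 0.920 through 19.4 to 51.8 in LS Gfra3 neurons. The means of all 3 differed by under 2-fold between the segments in both types, and the neurons of the segments overlapped over most of their range. In LS Piezo2 neurons both Hoxa9 and Hoxd8 were expressed in every one of 65 neurons. The members with numbers of 12 and 13 had no TL read, and in LS they held 44 reads (Hoxd12), 19 (Hoxc13), 6 (Hoxd13) and 1 each (Hoxa13, Hoxb13 and Hoxc12).

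The other 11 members found in at least 5% of neurons (Hoxa2, Hoxb2, Hoxb3, Hoxb4, Hoxb8, Hoxb9, Hoxc4, Hoxc5, Hoxc8, Hoxd3 and Hoxd4) were low and met the rule in no comparison of segment or type. Their means lay between 0.109 (Hoxc8) and 1.18 (Hoxc4) in TL and between 0.0625 (Hoxb8) and 0.945 (Hoxc4) in LS. Hoxc4, the most widespread, was expressed in 27.5% of TL and 31.6% of LS neurons. Hoxb9 stood out by its Piezo2 means of 2.27 in TL and 2.04 in LS, carried by few neurons (9.09% and 18.5%). Group 9 was thus represented in TL mainly by Hoxa9 and Hoxd9.

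Within a segment, HoxB genes were prominent among the members that differed between the 2 neuron types. In LS, 5 of 19 members (Hoxa11, Hoxb5, Hoxb6, Hoxb7 and Hoxc11) were lower in Gfra3 than in Piezo2 neurons, against 6.04% of 16426 genes, and Hoxc6 was higher, against 4.57%. In TL, 3 of 15 (Hoxb5, Hoxb6 and Hoxb7) were lower, against 4.09% of 16168 genes, and none was higher, against 6.1%. The median log2 ratio of Gfra3 to Piezo2 neurons over the members was -0.55 in LS and -0.48 in TL, beside 0.00 and 0.01 over all genes. Hoxb5, Hoxb6 and Hoxb7, which lie next to each other at chr11:96286623-96306121, were the members called in both segments.

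Hoxb6 was higher in Piezo2 neurons of both segments, where its values ran from 0 through 12.6 to 55.8 in TL and from 0 through 11.8 to 66.0 in LS. In Gfra3 neurons its median was 0 in both segments, with highest values of 31.8 in TL and 81.5 in LS, and 36% of TL but 8.43% of LS neurons expressed it. The means were 5.14-fold higher in Piezo2 neurons of TL (14.2 against 2.77) and 10.1-fold in LS (15.8 against 1.55). In TL this held among neurons with Nrp1, with means of 18.9 in 41 Piezo2 and 3.72 in 69 Gfra3 neurons. Without Nrp1 the TL means were 0.474 in 14 Piezo2 and 0.651 in 31 Gfra3 neurons. Hoxb5 ran from 0 through 21.0 to 57.6 in TL Piezo2 neurons and from 0 through 6.40 to 42.3 in LS Piezo2 neurons, and its Gfra3 median was 0 in both segments. Its mean was 3.22-fold higher in Piezo2 neurons in TL and 7.73-fold in LS. Hoxb7 ran from 0 through 0 to 56.8 in TL Gfra3 and from 0 through 13.6 to 71.9 in TL Piezo2 neurons, 2.14-fold higher in the latter. In LS it was expressed in 3.61% of Gfra3 neurons (highest value 5.11) and 43.1% of Piezo2 neurons (highest 83.4), with means 62.4-fold apart. In Gfra3 neurons the TL mean of Hoxb7 was 49.3-fold higher than the LS mean (7.79 against 0.158), and that of Hoxb5 6.35-fold (6.50 against 1.02). The 3 genes were therefore lowest in LS Gfra3 neurons, where few neurons held any of them. The call for Hoxb7 between TL types was lost in 5 of the alternatives. That for Hoxb5 between the segments in Gfra3 neurons was lost when means of log2 values were compared.

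**Figure D3:**
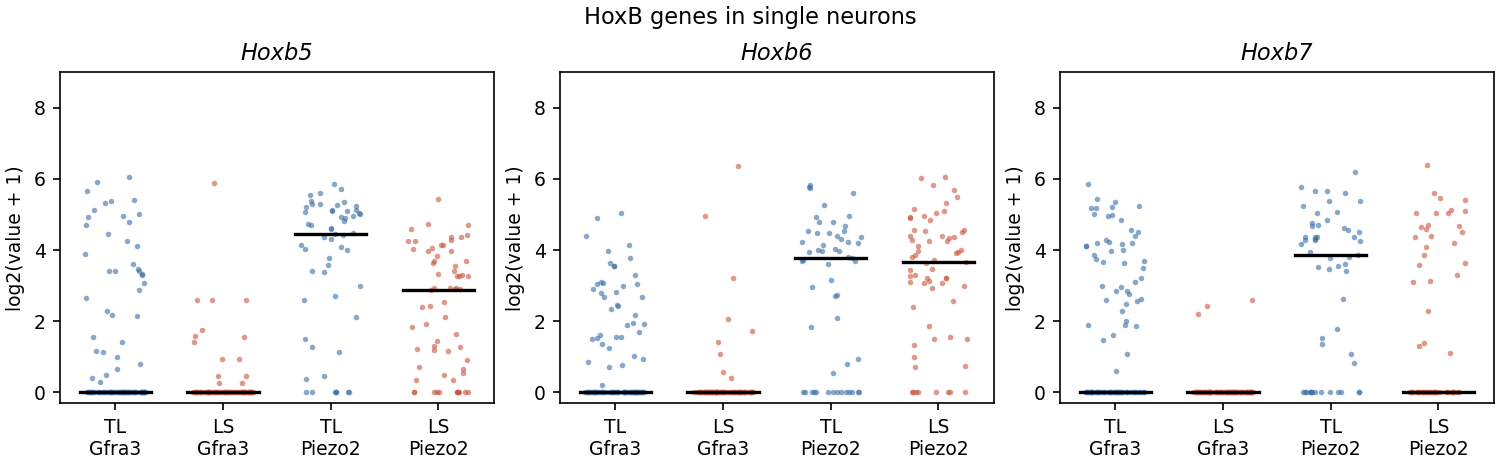
Each point is 1 neuron, the vertical axis is the log2 of the value plus 1, the columns are the TL and LS groups of Gfra3 and Piezo2 neurons, and black lines mark medians for Hoxb5, Hoxb6 and Hoxb7. The LS Gfra3 column is nearly empty for all 3 genes (9.64%, 8.43% and 3.61% of neurons at 1 or more), and the Piezo2 columns hold most of the high values.

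Of the 7 posterior calls, 6 were present on both sides of the Nrp1 split and that of Hoxc9 only among neurons with Nrp1. Among neurons with Nrp1, 7 of 19 members (the same 7 as in Gfra3 neurons) were higher in LS, against 1.02% of 16038 genes, and 3 (Hoxa6, Hoxb6 and Hoxb7) were lower, against 2.49%. Among neurons without Nrp1, 9 of 21 (Hoxa9, Hoxa10, Hoxb6, Hoxc10, Hoxc11, Hoxd8, Hoxd9, Hoxd10 and Hoxd11) were higher, against 9.02% of 16495 genes, and 1 (Hoxa4) was lower, against 2.55%. The median log2 ratio of the members was 0.42 with and 0.62 without Nrp1, beside 0.01 and 0.11 over all genes. Hoxd10 ran from 0 through 70.3 to 168 in LS neurons with Nrp1 and from 0 through 134 to 343 in those without, while its TL median was 0 in both. Its mean was 293-fold higher in LS with Nrp1 (76.5 against 0.261), and without Nrp1 1 TL read gave a ratio of 3510.2 with a counting interval of 630.0 to 138646. Hoxd9 was 4.33-fold higher in LS with Nrp1 and 10.8-fold without, and Hoxa10 6.38-fold and 10.1-fold. Single plates carried some of the smaller calls. With Nrp1, Hoxb6 was lost without plate 4 or plate 5 and Hoxc11 without plate 2; without Nrp1, Hoxa4 was lost without plate 3, Hoxa9 without plate 6 and Hoxd8 without plate 5.

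Hoxb6 was the member with calls in opposite directions on the sides of the Nrp1 split, but these calls depended on the processing. The call with Nrp1 was lost in 6 of 16 alternatives, among them a gate of 5 and a fold of 3. Neither call remained with values that were not rescaled. With Nrp1 Hoxb6 ran from 0 through 3.06 to 55.8 in TL and from 0 through 0 to 66.0 in LS, with means of 8.91 and 4.30. Without Nrp1 it ran from 0 through 0 to 19.7 in TL and from 0 through 0 to 81.5 in LS, with means of 1.38 and 8.96. With Nrp1 the types had like shares in the segments: Gfra3 neurons were 59.5% in TL and 62.2% in LS, and Piezo2 neurons 35.3% and 32.4%. Without Nrp1, Gfra3 neurons were 60.8% in TL and 49.6% in LS, and Piezo2 neurons 27.5% and 43.8%. Among Piezo2 neurons without Nrp1, 90.6% of 53 LS neurons and 7.14% of 14 TL neurons expressed Hoxb6 (means 16.6 and 0.474), whereas with Nrp1 50% of 12 LS and 90.2% of 41 TL neurons did (means 11.9 and 18.9). Among Gfra3 neurons the means were 0.396 in LS and 3.72 in TL with Nrp1 and 2.00 and 0.651 without. The shares of Gfra3 neurons that expressed Hoxb6 were higher in TL on both sides of the split. They were 17.4% of 23 LS and 44.9% of 69 TL neurons with Nrp1. Without Nrp1 they were 5% of 60 LS and 16.1% of 31 TL neurons, so few neurons carried the higher LS mean.

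Unsupervised clustering of the neurons without Hox genes, Gfra3, Piezo2 or Nrp1 gave 7 clusters, which allowed TL and LS to be compared within a cluster. Cluster 5 (mPEPb-like by its markers, led by Trpa1 and Adra2a) held 87 TL and 33 LS neurons. Within it 7 of 19 members were at least 2-fold higher in LS, against 5.26% of genes, and 6 (among them Hoxa5, Hoxa6, Hoxb5, Hoxb6 and Hoxb7) lower, against 7.99%, without a rule on plates. The 7 were those of the Gfra3 neurons, most of which in TL lie in this cluster. Hoxd10 ran from 0 through 0 to 27.0 in TL and from 17.5 through 66.3 to 190 in LS, and its means of 0.366 and 77.1 differed 211-fold. Hoxd11 (0.0117 and 8.05), Hoxc10 (0.0256 and 14.1) and Hoxc9 (0.232 and 3.74) were higher in LS, and Hoxb7 (8.37 and 0.155), Hoxb6 (3.66 and 0.349) and Hoxb5 (6.10 and 0.601) were higher in TL. Hoxd1 ran from 0 through 50.4 to 210.0 in TL and from 0 through 31.8 to 122 in LS, so within this cluster it stood under the 2-fold limit, unlike in the Gfra3 neurons. It stood under that limit in the other mixed clusters compared as well, with means of 30.2 in TL and 42.8 in LS in cluster 2, 67.2 and 39.9 in cluster 3, and 23.7 and 18.0 in cluster 4.

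In the other mixed clusters LS neurons were few. Cluster 3 (mNFb-like, 35 TL and 9 LS neurons) had 9 of 22 members higher in LS, against 11.3% of genes, and 7 lower, against 14.6%, with Hoxd10 at 97.9 in LS and 0.0165 in TL and Hoxb7 at 0.402 and 18.7. Cluster 3 was also marked by 7 markers of the subtype mPEPa, beside 10 of mNFb. Cluster 2 (25 TL and 5 LS neurons) was left unnamed, since 8 mNP and 8 mNFa markers marked it equally. It had 6 of 18 higher, against 11.8%, and 2 lower, against 16%. Its LS neurons held the least Hoxd10 of these clusters, from 0 through 1.20 to 42.0. Cluster 4, also unnamed and with the highest satellite glia sums, had 12 of 24 higher and 6 lower among 8 LS and 19 TL neurons, against 21.4% and 18.6%. Cluster 7, led by the endothelial genes Cldn5 and Cdh5, held 1 TL and 6 LS neurons and was not compared.

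Clusters 1 and 6 held LS neurons only and so compared subtypes within the segment. Cluster 1 (pNF-like, 49 neurons, led by Uts2b and Spp1) had 6 of 19 members at least 2-fold above cluster 6 (pPEP-like, 48 neurons, led by Ntm and Dcn, with the MHC class II genes H2-Aa and Cd74), against 9.42% of genes, and 3 below, against 12.8%. Hoxb6 ran from 0 through 15.1 to 63.9 in cluster 1 and from 0 through 0 to 7.37 in cluster 6, with means of 18.7 and 0.404. Hoxb7 (12.1 and 0.102), Hoxb5 (8.56 and 0.0654), Hoxb9 (2.15 and 0.254), Hoxc11 (8.31 and 3.20) and Hoxa11 (1.87 and 0.314) were the others above. Hoxd1 ran from 0 through 0 to 11.7 in cluster 1 and from 0 through 6.21 to 35.9 in cluster 6, and Hoxc9 (1.32 and 3.14) and Hoxc6 (0.583 and 1.62) were also lower in cluster 1. Hoxd10 was high in both, from 50.4 through 173 to 327 and from 0 through 125 to 253.

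In single neurons, the most posterior paralog group expressed gave each neuron a position along the series. In TL, group 9 was the highest in 55.7% of 167 neurons (interval 47.8 to 63.4), group 10 in 28.1% and group 8 in 12.6%, and no neuron reached group 11, which allows up to 1.80%. In LS, group 11 was the highest in 94.9% of 158 neurons, all neurons (interval 97.7 to 100) expressed a gene of group 10 or above, and 98.7% (95.5 to 99.8) one of group 11 or above. The split was there in both types. Group 9 was the highest in 62% of TL Gfra3 and 45.5% of TL Piezo2 neurons, and group 11 in 98.8% of LS Gfra3 and 89.2% of LS Piezo2 neurons. All 47 TL neurons with a gene of group 10 also expressed group 9, which 93 further TL neurons expressed without group 10. Thinning to 500000 reads left out 1 TL and 3 LS neurons with fewer reads. After it, 97.4% of 155 LS neurons reached group 11 or above and 31.9% of 166 TL neurons group 10 or above. The median number of Hox genes per neuron was 9 in TL (0 to 17) and 14 in LS (7 to 21), and its rank correlation with all genes detected was 0.50 in each segment, over 167 and 158 neurons that share depth and quality.

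**Figure D4:**
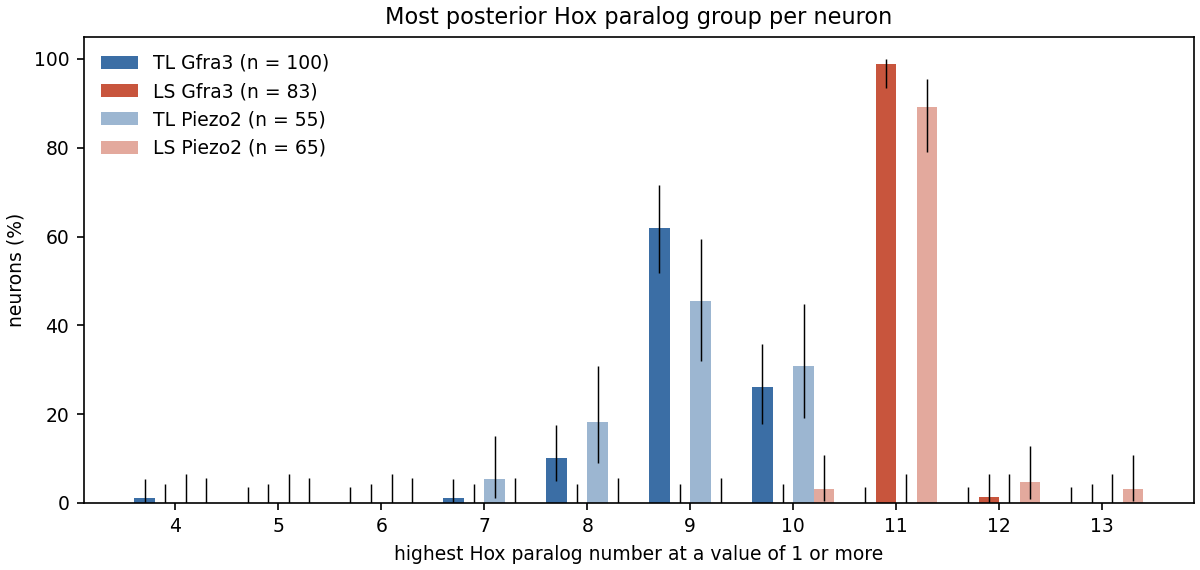
Bars give the percent of neurons whose highest expressed Hox paralog number is the one on the horizontal axis, for TL and LS Gfra3 and Piezo2 neurons, and error bars are exact 95% intervals that cover counting error only. TL bars peak at group 9 (62% and 45.5%) with no neuron above group 10, and LS bars at group 11 (98.8% and 89.2%).

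Few neurons went against their segment. Hoxd10 was expressed in 3 TL neurons (1.80%, interval 0.372 to 5.16) and 155 LS neurons (98.1%, 94.6 to 99.6). All 3 TL neurons were Gfra3 neurons, from plates 4, 4 and 5, with Hoxd10 at 2.09, 2.21 and 27.0. The last also held Hoxa10 at 16.6, Hoxd9 at 17.3, Hoxc10 at 1.06 and Hoxd1 at 66.7, and Hoxd11 at 0.638. The 3 LS neurons without Hoxd10 held no Hoxd11 either, but all expressed Hoxa10, at 12.7, 40.7 and 12.2, and Hoxc9, at 12.2, 1.34 and 27.7. None of Hoxc10, Hoxd10 and Hoxd11 was expressed in 159 TL neurons (95.2%) and in 1 LS neuron. Within the HoxD cluster, Hoxd10 exceeded Hoxd1 in 146 LS neurons (92.4%) and in no TL neuron, and Hoxd9 exceeded Hoxd1 in 80.4% of LS and 4.79% of TL neurons.

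Members were often expressed together in 1 neuron. Hoxa10, Hoxc10 and Hoxd10, the paralogs whose homeoboxes are printed above, were all expressed in 142 LS neurons (89.9%, interval 84.1 to 94.1) and in 1 TL neuron. The most frequent pairs in TL were Hoxd1 with Hoxd8 in 133 neurons (79.6%), Hoxa7 with Hoxd1 in 124 and Hoxa7 with Hoxd8 in 123. In LS they were Hoxd10 with Hoxd11 in 155 neurons (98.1%) and Hoxa9 with Hoxd8 in 155, followed by several pairs in 154, among them Hoxa10 with Hoxd9. Because common genes meet by their frequency alone, the phi coefficient (the correlation of presence and absence over neurons) was also taken. Its median was 0.05 over 300 pairs in TL and 0.03 over 435 pairs in LS, and higher for pairs of 1 cluster (0.13 and 0.06) than of different clusters (0.03 in both). Of these pairs, 200 in TL and 272 in LS had a phi above 0. A median of signed values does not give the strength of single pairs. The size of phi is also limited where a gene is found in few or nearly all neurons. Neurons of a segment share depth and detection, and these coefficients are descriptions.

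The pairs with the lowest phi in LS joined a HoxB gene to a member of another cluster: Hoxb6 with Hoxd1 (-0.42, both in 26 neurons), Hoxb5 with Hoxc6 (-0.33, 12 neurons) and Hoxb5 with Hoxd1 (-0.30, 26 neurons). Within the neuron types the first was -0.07 in Gfra3 and -0.32 in Piezo2 neurons. In TL the lowest were weaker, such as Hoxa6 with Hoxb4 (-0.22) and Hoxa9 with Hoxc4 (-0.17). Among pairs chosen after their values were seen, Hoxb5, Hoxb6 and Hoxb7 had phi of 0.57 to 0.63 in LS. There all 33 neurons with Hoxb7 also had Hoxb6, and in TL Hoxb6 with Hoxb7 had a phi of 0.50. These phi pool the neuron types, between which these genes differed. Within a type, rank correlations of their levels were 0.36 to 0.57 in LS Gfra3 and 0.36 to 0.63 in LS Piezo2 neurons. In TL Gfra3 neurons they were 0.45 to 0.51. In TL Piezo2 neurons they were 0.08 for Hoxb5 with Hoxb6, 0.14 for Hoxb5 with Hoxb7 and 0.50 for Hoxb6 with Hoxb7. By level, Hoxd10 had a rank correlation with Hoxd1 of -0.50 over 158 LS neurons, of -0.31 over 83 Gfra3 and -0.29 over 65 Piezo2 neurons, and with Hoxc11 of 0.51 (0.18 and 0.63). In TL, Hoxa9 and Hoxa10 had 0.67 over 167 neurons.

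**Figure D5:**
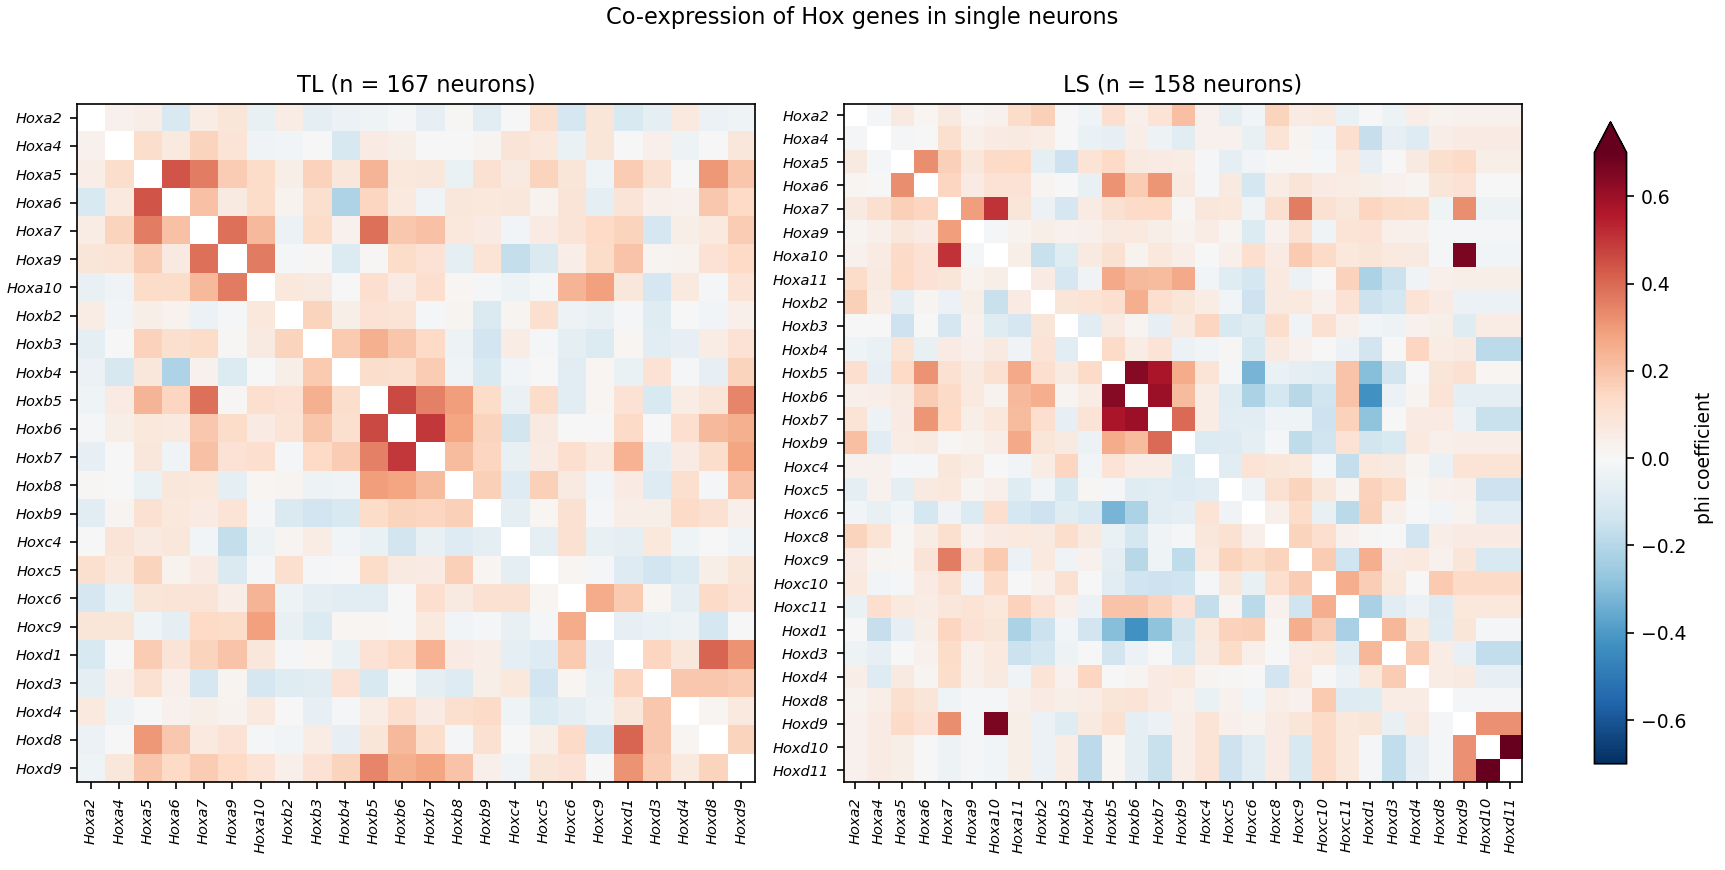
Heat maps give the phi coefficient of each pair of Hox genes expressed in at least 5% of neurons, 1 member not shown, for TL on the left and LS on the right, with red for pairs found together more often than their frequencies give and blue for less often. Most cells are pale (median over all pairs 0.05 in TL and 0.03 in LS), the block of Hoxb5 to Hoxb7 is red in both, and Hoxb6 with Hoxd1 in LS is the deepest blue at -0.42.

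Genes that act with or on Hox genes were listed apart: 11 TALE homeodomain cofactors of the Pbx, Meis and Pknox families, 3 Cdx activators, 13 Polycomb and 5 Trithorax chromatin genes, which keep Hox genes off or on, and 9 noncoding genes of the clusters. Over all neurons, 0 of 8 cofactors, 0 of 12 Polycomb, 0 of 5 Trithorax and 2 of 5 noncoding genes with enough expression differed between segments by the same rule (1 higher in LS, against 4.52% of all genes, and 1 lower, against 3.47%), and no Cdx gene had a mean of 1. Hotair, a noncoding gene of the HoxC cluster between Hoxc11 and Hoxc12, was expressed in 62.0% of LS neurons (mean 4.45) and had no value above 0 in TL, which allows up to 1.80%. In Gfra3 neurons 1 of 5 noncoding genes was higher in LS, against 2.87% of all genes. Lower were 1 of 5 noncoding genes and 1 of 7 cofactors, against 3.17%, and 0 of 12 Polycomb and 0 of 5 Trithorax genes were called. In Piezo2 neurons 1 of 5 noncoding and 1 of 11 Polycomb genes were higher, against 6.5%. Lower were 2 of 5 noncoding genes and 1 of 9 cofactors, against 3.19%, and 0 of 5 Trithorax genes were called. Whether these lists differed from all genes was not tested. The mean of Hotair was 4.28 in LS Gfra3 and 4.65 in LS Piezo2 neurons. Hoxb5os, which overlaps 3.59% of the exonic length of Hoxb5, was lower in LS (0.474 against 1.72), as Hoxb5 was, and lost its call in Gfra3 neurons without plate 2. Pknox2, a TALE cofactor, was lower in LS Gfra3 than in TL Gfra3 neurons (1.52 against 4.68) and, within each segment, lower in Gfra3 than in Piezo2 neurons (1.52 against 9.72 in LS and 4.68 against 16.0 in TL). Pbx3 was likewise lower in Gfra3 neurons (0.414 against 1.66 in LS and 0.416 against 2.67 in TL). Pknox2 and Pbx3 were 2 of 7 cofactors in LS, against 6.04% of all genes, and 2 of 9 in TL, against 4.09%. No gene of the other lists was called lower in Gfra3 neurons of either segment. Hoxb5os had lower means there without meeting the rule. They were 0.0909 against 0.998 in LS, under the limit of 1 for the higher mean. In TL they were 1.14 against 2.71, with the same direction in 4 of 5 plates. In Piezo2 neurons the Polycomb gene Phc1 was higher in LS (1.96 against 0.365), and Meis2 (0.0912 against 1.13) and Hoxaas2 (1.17 against 2.78) were lower. The call for Meis2 was lost without plate 3 or plate 6. Phc1 was also higher in Gfra3 than in Piezo2 neurons of TL (1.4 against 0.365). It was 1 of 12 Polycomb genes and the only listed gene called higher there, against 6.1% of all genes. In LS no listed gene was called higher in Gfra3 neurons, against 4.57%. The other cofactors included Meis3, with means of 56.3 in LS and 48.3 in TL, and Pbx4, with 14.1 and 15.1.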

How the data were processed

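Single neurons were sequenced as full-length cDNA (Smart-seq2, 75 bp paired-end), and the submitters' processing notes name bcl2fastq 2.15.0.4, STAR 2.4.1 and featureCounts 1.4.4 on GRCm38. The authors deposited log2 values (log2 of a normalized, length-scaled value plus 1) for 45513 genes and 325 neurons, after removing low-quality neurons. The 13 samples of bath fluid were not used. The values were returned to the linear scale and rescaled to 1000000 per neuron. Whole reads were recovered from them: 65.0% of values were whole (tolerance 1e-06) with GENCODE M21 exonic lengths, and 100% once the lengths of 8712 genes were found from the values themselves, Hoxa2 and Hoxa7 among the members. Depth was 0.416 M to 12.1 M reads per neuron (M, 1000000). Libraries carry no strand, so overlapping genes cannot be told apart: Hoxb3, Hoxd3 and Hoxd4 share 52.9%, 62.8% and 52.3% of their exonic length with other genes.

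Groups were the labelled segments, and types were set by Gfra3, Piezo2 and Nrp1 at 10. Comparisons used the ratio of means (fold of 2, higher mean of 1, same direction in each plate with 3 or more neurons of both groups), with no p-values, and a floor of 3 reads over a group where it had none. Clusters came from a consensus clustering with k of 7 and the plate effect removed, checked against k of 6 (adjusted Rand index 0.861) and k of 8 (0.699); subtype names rest on markers. Alternatives changed the fold, the lowest mean, the scale, the gates, the filters and the plates. The Hox members, the cofactor lists and the rules were chosen with earlier results of these data known. Named were every Hox gene or cofactor called in a comparison, every Hox gene with a mean of at least 5 in a group of segment and type, and the 3 most frequent and 3 lowest-phi pairs per segment, and 1 of these members is not reported here. Python 3.11.15, numpy 2.4.6, pandas 2.3.3, scipy 1.17.1, scikit-learn 1.9.0 and matplotlib 3.10.9 were used.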

Additional observations from a re-analysis of the deposited data

Results flagged for a closer look

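Hoxb6 was flagged because its ratio of LS to TL lay on opposite sides of 1 with and without Nrp1 in every plate used. The ratio was 0.482 among neurons with Nrp1 (means of 4.30 in LS and 8.91 in TL) and 6.50 among neurons without (8.96 and 1.38). The call with Nrp1 was lost in 6 of 16 alternatives and that without Nrp1 in 1. With values that were not rescaled, neither call remained. The difference between these ratios was not tested.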

How the results depend on the processing

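No paired analysis was possible because the labels tie no neuron to a replicate, mouse or culture and no test was run; plates 2 to 6, which hold both segments, entered only through the direction within each. Over the alternatives the number of Hox genes called between LS and TL ran from 9 to 16 over all neurons (12 as reported), 9 to 13 in Gfra3 neurons (12), 8 to 15 in Piezo2 neurons (10), 7 to 11 with Nrp1 (10) and 7 to 11 without (10), and between the types from 4 to 9 in LS (6) and 2 to 5 in TL (3). The TL count was 5 at a fold of 1.5 and 5 at a higher mean of 0.5. With 1 plate left out these counts ran from 12 to 12, 11 to 13, 10 to 12, 9 to 11, 9 to 12, 6 to 8 and 3 to 4. Hoxa10, Hoxc10, Hoxd9, Hoxd10 and Hoxd11 lost their call between LS and TL under none of the alternatives run. No called gene changed direction, and 70 single-gene results lost their call while 914 did not.

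With an expression threshold of 5, 88.6% of LS neurons reached group 11 or above (98.7% at 1), 16.2% of TL neurons group 10 or above (28.1%) and 73.1% of TL neurons group 9 or above (83.8%). With any value above 0, 48.5% of TL neurons reached group 10 or above. At a threshold of 5, 81.0% of LS and 0% of TL neurons held all of Hoxa10, Hoxc10 and Hoxd10 (89.9% and 0.599% at 1), and 43.0% of LS and 69.5% of TL neurons held Hoxd1 with Hoxd8 (61.4% and 79.6%). The cofactor, Cdx, Polycomb, Trithorax and noncoding lists were counted together. At a fold of 1.5, 7 of their genes were called over all neurons (2 as reported, both noncoding), 6 in Gfra3 neurons (3) and 8 in Piezo2 neurons (5). With 1 plate left out these counts were 2 to 4, 2 to 5 and 4 to 7. The comparison of mNFb-like neurons with k of 8 was not run, since too few LS neurons were left. The recovered reads and the removal of clusters 4 and 7 were chosen after seeing the data. Depth limits genes with a value near that of 1 read, and the shares of neurons that express them.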
